A study of Mus musculus with 6 samples.

Results

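The 10 genes described here encode the chains of the main fibrillar collagens (Col1a1, Col1a2, Col3a1, Col5a1 and Col5a2), of the basement membrane collagen of type IV (Col4a1 and Col4a2) and of the beaded filament collagen of type VI (Col6a1, Col6a2 and Col6a3). They were taken by symbol from the expression table. All 10 were among its 15824 listed genes, and all 10 were among the 11817 that passed the low-count filter and were tested. RNA was sequenced, after selection of polyadenylated transcripts, from cells that flow cytometry had sorted as alveolar macrophages, the phagocytes that live in the airspaces. The lungs came from mice aged 8 weeks, with 3 libraries for Men1 knockout (KO) and 3 for wild type (WT). Men1 encodes menin, a scaffold of histone methyltransferase complexes. The labels name no Cre line, promoter, strain or sex. They also leave unsaid whether each library is a mouse of its own, and p-values here reflect the spread among libraries alone, part of which may be technical. The question put to the data was whether the collagens were lower in KO, and whether they all fell by 1 common ratio.

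Collagens are trimers of long chains that fold into a triple helix. Type I and type III make the thick fibrils of lung interstitium and vessel walls, type V joins them in the fibril core, type IV forms the sheet of basement membranes, and type VI forms microfilaments around cells. Fibroblasts are the main producers of the fibrillar and type VI chains in the lung, while endothelial and epithelial cells, fibroblasts and smooth muscle cells make type IV.

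Libraries held 19955242 to 20151990 counts. Men1 had 150, 149 and 165 counts in KO libraries 1, 2 and 3, against 639, 594 and 603 in WT libraries 1, 2 and 3. The summed counts of the Y-linked genes Ddx3y, Eif2s3y, Kdm5d and Uty were 0 to 2 in KO libraries and 3320 to 3445 in WT libraries, so the difference of genotype and the difference in Y-linked transcripts cannot be told apart in any comparison below. Of the markers of the labelled cell type, Siglecf stood at 1.34 ± 0.154 CPM in KO and 2.06 ± 0.381 CPM in WT (SD, n = 3 each; CPM is the count scaled to the library size), and Fabp1, Plet1, Ear1, Ear2 and Ear6 had no more than 4 counts in a library. The 13 alveolar macrophage markers analysed summed to 2768 to 2854 CPM in KO and 4104 to 4162 CPM in WT libraries, with 5 lower and 3 higher in KO of 8 tested. Of all tested genes, 34.9% were lower and 34.4% higher in KO at an adjusted p under 0.05 (edgeR's quasi-likelihood test). Spp1, the osteopontin gene, carried that sum with 1527 ± 28.0 CPM in KO and 3757 ± 22.7 CPM in WT. Without it the other 12 summed to 1254 to 1297 CPM in KO and 367 to 381 CPM in WT libraries, mostly from the scavenger receptor gene Marco, at 1137 ± 22.8 CPM in KO and 172 ± 2.17 CPM in WT. General macrophage markers were abundant, at 33575 to 34356 CPM in KO and 28582 to 29787 CPM in WT libraries, with 7 of 10 higher in KO and 3 not past the threshold. Of 11 interstitial macrophage markers tested, 9 were higher and 1 lower in KO.

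Every collagen gene of the set fell. By edgeR's quasi-likelihood test each of the 10 was lower at an adjusted p under 0.05. Of all tested genes 69.2% passed that threshold, and 34.9% passed it in this direction. With the biological coefficient of variation set to 0.1, 37.3% of all tested genes passed in either direction. All 10 collagens were again among those lower, and the share of all tested genes lower was not computed at that setting. Each was also at least 4-fold lower in KO, where 1.57% of all tested genes were. Every KO library lay below every WT library for all 10, which held for 35.8% of all tested genes. Col5a1, with 16, 5 and 11 KO counts, and Col6a2, with 15, 8 and 20, passed the low-count filter only through WT. With no low-count filter, all 10 were again lower in KO at an adjusted p under 0.05. The log2 fold changes, KO over WT, ran from -3.25 for Col3a1 to -2.41 for Col5a1, with a median of -3.04 beside 0.0014 over all genes tested. In the order of all 11817 log2 fold changes from the lowest, the 10 genes stood between places 49 and 140. With limma on log2(FPKM + 1) they lay between -1.51 and -0.37, since an added 1 exceeds most of these values. RNA came from bulk sorted cells, so fewer collagen-producing cells and less collagen RNA per cell cannot be told apart.

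**Figure D1:**
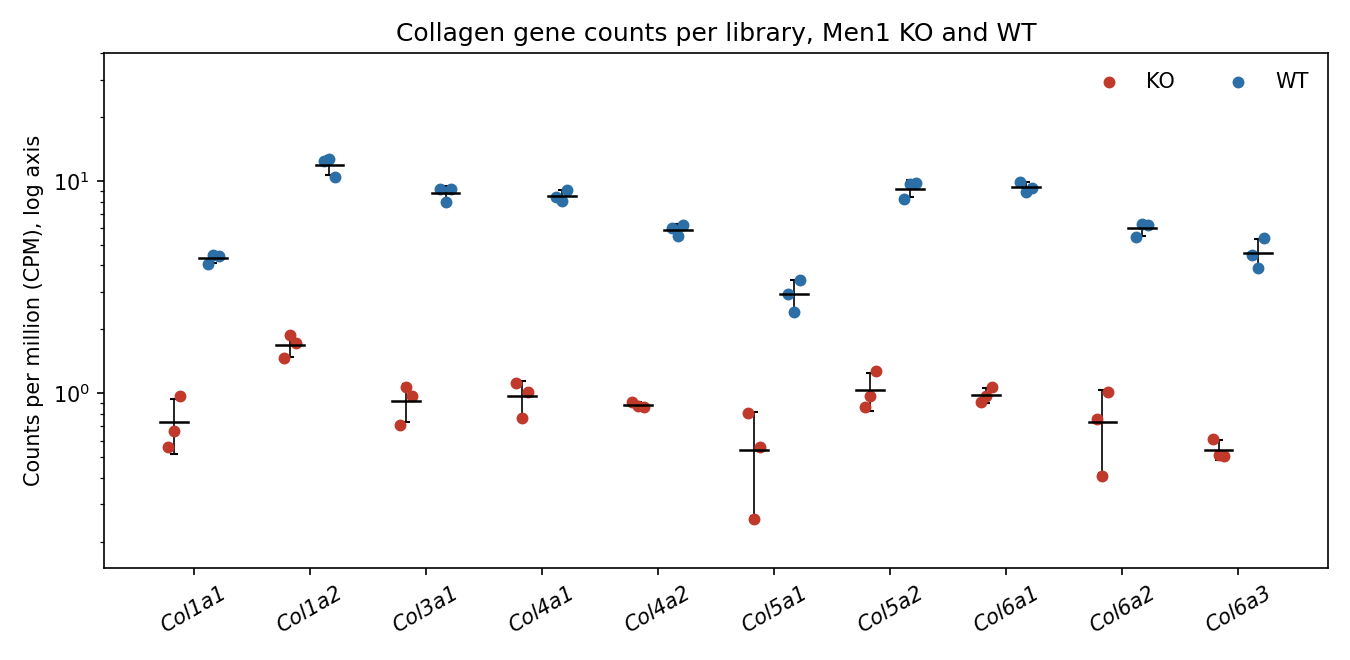
Levels (CPM, log axis) of the 10 collagen genes in the 3 KO libraries (red, left of each pair) and the 3 WT libraries (blue, right). Points are libraries, black bars are means and whiskers are SD. For every gene the 3 KO points lie below the 3 WT points, and for Col5a1 and Col6a2 the KO points are widely spread.

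The upstream bases of the genes with the lowest and the highest log2 fold change of the set are shown to mark both ends of that range, as RefSeq gives them on build GRCm38.p6. Col3a1 (-3.25) is shown on the plus strand at chr1:45311288-45311537 and Col5a1 (-2.41) on the plus strand at chr2:27886175-27886380, each ending at the last base before the annotated gene. Capitals mark matches, on either strand, to 3 promoter motifs. These were the TATA box, spelled TATAAA and on the other strand TTTATA, the CCAAT box, with ATTGG as its other strand, and the GC box, spelled GGGCGG and on the other strand CCGCCC. No spelling overlaps another in the windows shown.
Col3a1: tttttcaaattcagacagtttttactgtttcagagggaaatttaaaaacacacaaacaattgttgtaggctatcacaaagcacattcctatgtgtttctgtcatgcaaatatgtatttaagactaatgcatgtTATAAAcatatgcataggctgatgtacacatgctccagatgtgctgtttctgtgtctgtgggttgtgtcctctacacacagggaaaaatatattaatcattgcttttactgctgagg
Col5a1: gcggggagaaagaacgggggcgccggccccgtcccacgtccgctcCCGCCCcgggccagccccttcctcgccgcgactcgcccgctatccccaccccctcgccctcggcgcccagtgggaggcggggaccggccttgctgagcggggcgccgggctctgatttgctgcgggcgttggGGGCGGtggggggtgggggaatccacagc
The Col3a1 window holds a TATA box match and no GC box match, and the Col5a1 window holds GC box matches on both strands. Upstream windows of 250 bases were at hand for 8 of the 10 genes. A CCAAT box match was found for 3 of these 8 (Col1a2, Col4a1 and Col4a2), a GC box match for 4 (Col1a2, Col4a2, Col5a1 and Col6a2) and a TATA box match for 1 (Col3a1). Those counts are of genes with a match in any window, and the 8 genes had 9 windows. Counted per window instead, 33.85% of all 32851 windows of that length held a CCAAT box match, 32.74% a GC box match and 12.37% a TATA box match. These are matches of letters and not measured binding sites.

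Type I collagen, the bulk of fibrous tissue, is assembled from the products of Col1a1 (chromosome 11, positions 94936224 to 94953042; gene ID 12842) and Col1a2 (chromosome 6, 4505618 to 4541543; gene ID 12843), and these and the following coordinates are of GRCm38.p6. Col1a1 had 11, 13 and 19 counts in KO libraries 1, 2 and 3, against 83, 91 and 91 counts in WT libraries 1, 2 and 3. All 3 KO libraries were thus far below the lowest WT library. The level was 0.730 ± 0.213 CPM in KO and 4.33 ± 0.221 CPM in WT (SD, n = 3 each), a 5.93-fold lower level (log2 fold change -2.56, SE 0.196; adjusted p = 5.26e-14 by edgeR's quasi-likelihood method and Benjamini-Hochberg adjustment, which give every adjusted p below). Col1a2 had 29, 37 and 34 counts in KO and 252, 259 and 214 counts in WT. It kept the most counts of the set in both groups, and its groups were as clearly apart. Its level was 1.698 ± 0.211 CPM in KO and 11.8 ± 1.23 CPM in WT, 6.97-fold lower (log2 fold change -2.80, SE 0.130; adjusted p = 2.9e-20).

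Col3a1 (chromosome 1, 45311538 to 45349706; gene ID 12825) encodes the only chain of type III collagen, which is mixed into type I fibrils in lung and vessels. It had 14, 21 and 19 counts in KO libraries, against 186, 162 and 188 counts in WT libraries. Its highest KO library was far below its lowest WT library, and its fall was the steepest of the set. The level was 0.917 ± 0.186 CPM in KO and 8.75 ± 0.686 CPM in WT, 9.54-fold lower (log2 fold change -3.25, SE 0.158; adjusted p = 1.01e-19).

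Type V collagen sets the diameter of type I fibrils. Col5a1 (chromosome 2, 27886381 to 28039510; gene ID 12831) had 16, 5 and 11 counts in KO libraries, against 60, 49 and 70 in WT libraries. KO library 2 was low beside the other KO libraries, and none of them reached the WT range. The level was 0.543 ± 0.279 CPM in KO and 2.92 ± 0.503 CPM in WT, 5.38-fold lower (log2 fold change -2.41, SE 0.253; adjusted p = 1.57e-10), the smallest fold of the set on the fewest WT counts. Col5a2 (chromosome 1, 45374331 to 45503282; gene ID 12832) had 17, 19 and 25 counts in KO libraries and 168, 196 and 200 counts in WT libraries. KO libraries were again below all WT libraries. The level was 1.04 ± 0.213 CPM in KO and 9.21 ± 0.838 CPM in WT, 8.89-fold lower (log2 fold change -3.14, SE 0.153; adjusted p = 1.18e-19).

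Col4a1 and Col4a2 encode the ubiquitous chains of basement membrane collagen and lie head to head on chromosome 8, at 11198423 to 11312889 (gene ID 12826) and 11312805 to 11449287 (gene ID 12827), so that their annotated ends overlap by 85 bases. The sources used here do not say whether counting used the strand, so reads in that overlap, and in long non-coding RNA genes annotated within Col4a1, Col4a2 and Col5a1, cannot be assigned to 1 gene. Col4a1 had 22, 15 and 20 counts in KO libraries and 171, 163 and 186 counts in WT libraries. Col4a2 had 18, 17 and 17 counts in KO libraries and 122, 112 and 127 counts in WT libraries. The groups of both genes were far apart, and the KO libraries of Col4a2 were nearly equal. Col4a1 was 8.78-fold lower, at 0.967 ± 0.181 CPM in KO and 8.49 ± 0.537 CPM in WT (log2 fold change -3.13, SE 0.155; adjusted p = 1.82e-19). Col4a2 was 6.68-fold lower, at 0.883 ± 0.0268 CPM in KO and 5.89 ± 0.354 CPM in WT (log2 fold change -2.73, SE 0.168; adjusted p = 1.17e-16).

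Type VI collagen links cells to the surrounding fibrils, and its chains come from Col6a1 (chromosome 10, 76708792 to 76726044; gene ID 12833), its neighbour Col6a2 (chromosome 10, 76595756 to 76623630; gene ID 12834) and Col6a3 (chromosome 1, 90766860 to 90844001; gene ID 12835). Col6a1 had 18, 19 and 21 counts in KO libraries and 202, 180 and 190 counts in WT libraries. Col6a2 had 15, 8 and 20 counts in KO libraries and 111, 128 and 127 counts in WT libraries. Col6a3 had 12, 10 and 10 counts in KO libraries and 91, 79 and 110 counts in WT libraries. The KO libraries were tight for Col6a1 and Col6a3 and spread for Col6a2, where KO library 2 was low as it was for Col5a1. No KO library reached a WT library for any of the 3 genes. Col6a1 was 9.49-fold lower, at 0.985 ± 0.0791 CPM in KO and 9.34 ± 0.538 CPM in WT (log2 fold change -3.24, SE 0.148; adjusted p = 1.52e-20). Col6a2 was 8.19-fold lower, at 0.730 ± 0.306 CPM in KO and 5.98 ± 0.461 CPM in WT (log2 fold change -3.02, SE 0.191; adjusted p = 2.34e-16), and Col6a3 was 8.41-fold lower, at 0.543 ± 0.0571 CPM in KO and 4.57 ± 0.747 CPM in WT (log2 fold change -3.06, SE 0.213; adjusted p = 3.78e-15).

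All 10 genes were weakly expressed in both groups. By mean CPM they stood between percentiles 2.64 and 10.2 of all tested genes in KO and between percentiles 13.9 and 32.0 in WT. Levels per length can be compared between genes on the authors' FPKM scale (fragments adjusted for transcript length and sequencing depth). In KO the order ran from Col1a2 at 0.343 ± 0.0404 FPKM and Col6a1 at 0.267 ± 0.0208 FPKM down to Col5a1 at 0.0667 ± 0.0351 FPKM and Col6a3 at 0.0633 ± 0.00577 FPKM. Below Col1a2, whose lowest KO library was above the highest of Col6a1, each gene's KO range overlapped that of the next in the order. Genes farther apart in the order could still be separate, as Col6a1, at 0.25 to 0.29 FPKM in KO libraries, lay above Col3a1, at 0.13 to 0.20 FPKM, and Col4a2, at 0.14 to 0.15 FPKM, lay above Col5a1, at 0.03 to 0.10 FPKM. In WT it ran from Col6a1 at 2.61 ± 0.156 FPKM and Col1a2 at 2.47 ± 0.262 FPKM, whose ranges overlapped, through Col6a2, Col3a1, Col5a2 and Col4a1, each overlapping the next, to Col4a2 at 0.983 ± 0.0569 FPKM, Col1a1 at 0.787 ± 0.0404 FPKM, Col6a3 at 0.537 ± 0.0929 FPKM and Col5a1 at 0.383 ± 0.0702 FPKM, which did not overlap their neighbours.

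Per length, Col1a1 was below Col1a2 in all 6 libraries, with a Col1a1 to Col1a2 ratio of FPKM values of 0.378 ± 0.0935 in KO and 0.322 ± 0.0459 in WT (SD, n = 3 each). In the protein trimer of type I collagen the chain from Col1a1 is in excess. The summed FPKM of all 10 was also divided by type, with no test. Type VI made up 31.5% of it in KO and 34.8% in WT, type I 27.8% in KO and 23.1% in WT, type IV 17.2% in KO and 16.7% in WT, type V 13.5% in KO and 13.3% in WT, and type III 9.98% in KO and 12.1% in WT.

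Summed over the 10 genes, the counts were 172, 164 and 196 in KO libraries, against 1446, 1419 and 1503 in WT libraries, and the groups did not overlap. The sum was 9.03 ± 0.845 CPM in KO and 71.3 ± 1.81 CPM in WT, 7.90-fold lower. The folds by type were 6.66 for type I, 9.54 for type III, 7.77 for type IV, 7.69 for type V and 8.81 for type VI. In raw counts, before scaling for library size, the sums of 532 in KO and 4368 in WT gave a ratio of 8.21. The KO counts expected from each gene's WT counts at this ratio fell inside the 95% Poisson interval of the observed KO counts for 9 of the 10 genes. For Col5a1, with 32 KO counts, the 21.8 expected lay just under the interval of 21.9 to 45.2. The 95% intervals of edgeR's fold changes, which include the scaling, held the fold of 7.90 for 8 of the 10. The upper ends for Col1a1, at 7.76-fold, and Col5a1, at 7.61-fold, lay just under it. Both the ratio of 8.21 and the fold of 7.90 were pooled from these same 10 genes, each gene's own counts included. The Poisson intervals covered the KO counts only and took the WT counts as exact. An interval that holds a value made partly from the gene itself does not show 1 common ratio.

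**Figure D2:**
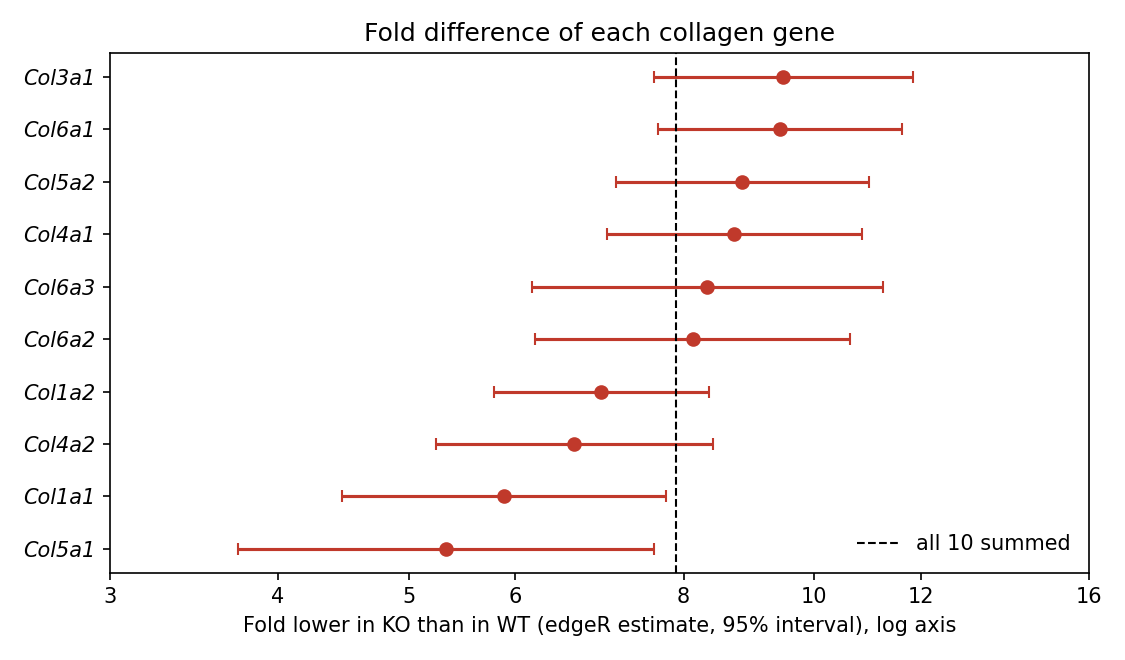
Fold by which each collagen gene was lower in KO than in WT (edgeR estimate with its 95% interval, log axis). The dashed line is the fold of the 10 genes summed, 7.90, and the intervals of Col1a1 and Col5a1 end just below it while the other 8 cross it.

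Ratios between genes do not depend on how libraries are scaled, and 17 of them were compared between KO and WT. The first 10 set each gene against the sum of the other 9. Here the ratio in KO over the ratio in WT lay between 0.808 for Col3a1 (95% exact interval 0.589 to 1.09) and 1.498 for Col5a1 (0.983 to 2.22), and all 10 intervals held 1. These intervals cover counting error only. With 32 KO counts for Col5a1 and Col6a3 and 100 for Col1a2 they are wide, and departures from a common ratio that stay within them were not detectable at this depth. For Col1a2, with the most counts, the ratio was 1.16 (0.913 to 1.47). For Col4a2 at 1.202 (0.868 to 1.64) and Col6a1 at 0.812 (0.599 to 1.09) the 3 KO libraries did not overlap the 3 WT libraries. Of all 17 ratios, 4 had no overlap, each with an exact permutation p of 0.10 before adjustment. Separation of 3 against 3 libraries cannot give a smaller p, so it is weak evidence of a difference.

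The other 7 ratios paired chains of the same trimer, and Col3a1 with Col1a1. The Col1a1 to Col1a2 ratio in KO was 1.18 times that in WT (0.781 to 1.75). The type VI ratios in KO were 0.863 (Col6a1 to Col6a2, 0.559 to 1.34), 0.887 (Col6a1 to Col6a3, 0.552 to 1.45) and 1.03 (Col6a2 to Col6a3, 0.618 to 1.73) times those in WT. All of these intervals held 1, which bounds the differences but does not show equal ratios. Two-sided exact permutation tests over the libraries cannot give a p below 0.10 with 3 against 3, and after adjustment over the 17 ratios the smallest p was 0.425.

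Some pairs came nearer to a difference. The Col3a1 to Col1a1 ratio of counts was 1.27, 1.62 and 1 in KO libraries, against 2.24, 1.78 and 2.07 in WT libraries. The groups did not overlap, the ratio in KO was 0.621 times that in WT (0.397 to 0.977), and the exact permutation p was 0.10. The Col4a1 to Col4a2 ratio was 1.22, 0.882 and 1.18 in KO libraries, against 1.40, 1.46 and 1.46 in WT libraries, also without overlap (0.761 times, 0.501 to 1.16; exact permutation p = 0.10). The Col5a1 to Col5a2 ratio was 0.941, 0.263 and 0.440 in KO libraries, against 0.357, 0.250 and 0.350 in WT libraries. These overlapped, although the interval of the pooled counts did not hold 1 (1.65 times, 1.01 to 2.67; exact permutation p = 0.4), and the high value came from KO library 1. In all, 2 of the 17 intervals left out 1. Without KO replicate 1 or without KO replicate 3 none did, without WT replicate 1 or WT replicate 2 it was 1, and without KO replicate 2 it was 3.

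**Figure D3:**
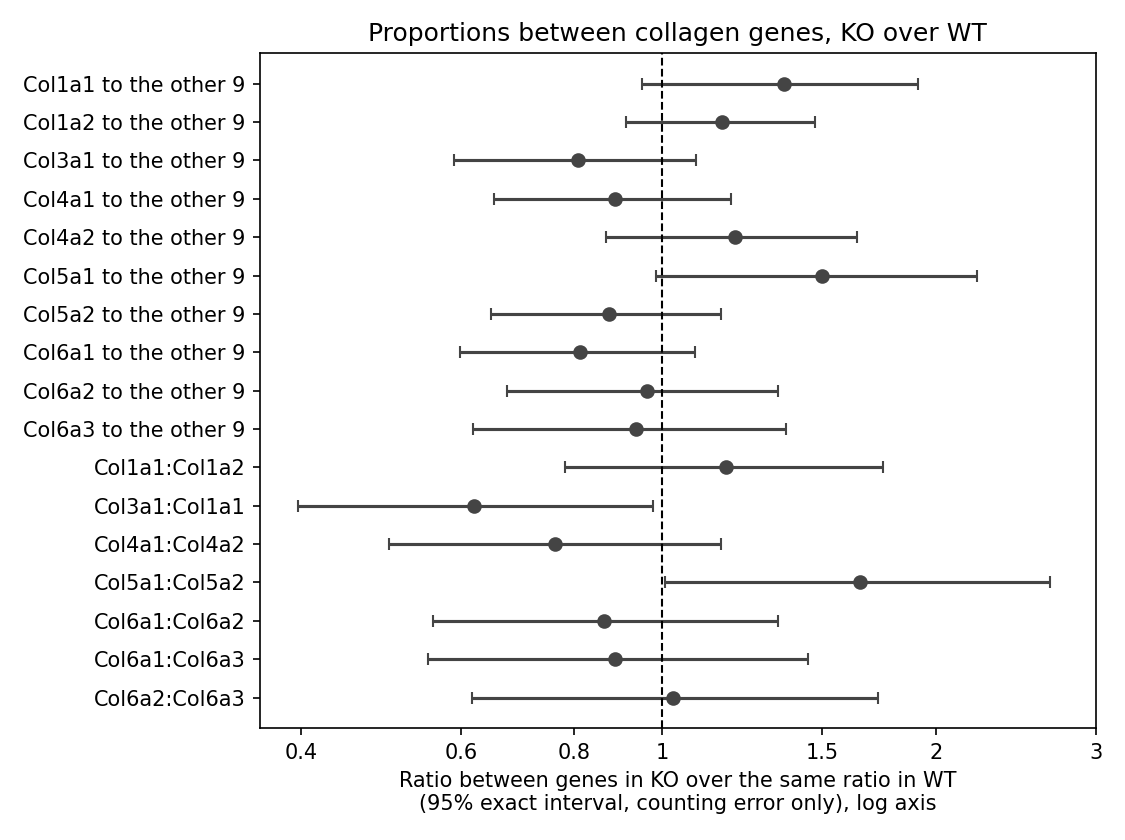
Ratio between collagen genes in KO divided by the same ratio in WT (log axis), for each gene against the other 9 summed (upper 10) and for 7 pairs. Points are from counts summed over 3 libraries per group, bars are 95% exact intervals for counting error, and only Col3a1:Col1a1 and Col5a1:Col5a2 have bars that miss the dashed line at 1.

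The rest of the collagen family did not fall as a block. The counts of each list below stand beside 34.9% of all tested genes lower and 34.4% higher in KO. A gene could pass the low-count filter through 1 group alone. Col8a1, Col5a3, Adamts2, Loxl1, Loxl2, Ddr1, Ddr2 and Pdgfra were among those that did so, through WT. Col8a1 had 3, 2 and 4 counts in KO libraries and 28, 42 and 33 in WT libraries. Genes low in both groups were left out, so the counts and medians of these lists partly follow from the filter. Of 34 other collagen genes listed, 29 were analysed here and 12 had enough counts to be tested, of which 8 fell, 2 rose and 2 did not pass (median log2 fold change -1.03). Col12a1, a collagen bound to the surface of fibrils, had 19, 17 and 20 counts in KO libraries, against 148, 146 and 160 counts in WT libraries, and was 7.80-fold lower (adjusted p = 1.29e-18). Col5a3, the third type V chain, was 7.69-fold lower and the short-chain collagen gene Col8a1 was 11.01-fold lower. The KO level of Col8a1 was at a floor of 3 counts per library, so the size of its fold is not reliable. In contrast, Col18a1, the precursor of endostatin and the collagen with most counts in the table, stood at 35.7 ± 1.52 CPM in KO and 49.6 ± 1.56 CPM in WT, 1.39-fold lower (adjusted p = 7.05e-12). The membrane-spanning collagen gene Col23a1 was 2.47-fold lower, and the type IV chain gene Col4a5 1.69-fold lower. Col19a1 rose, at 1.48 ± 0.279 CPM in KO and 0.522 ± 0.0271 CPM in WT.

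Genes that modify collagen in the endoplasmic reticulum were mostly abundant and moved little. Of 17 tested, 5 fell, 7 rose and 5 did not pass (median log2 fold change -0.04), a share near the 69.2% of all tested genes that passed in either direction. The lysyl hydroxylase genes Plod3 and Plod1 rose by 0.51 and 0.50 on the log2 scale, and Colgalt1, which adds galactose to hydroxylysine, by 0.36. Serpinh1, the collagen-specific chaperone HSP47, went the other way, with 0.645 ± 0.178 CPM in KO and 4.34 ± 0.5003 CPM in WT, 6.74-fold lower (adjusted p = 2.93e-14). Fkbp10, a prolyl isomerase of procollagen, was 5.90-fold lower.

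Among genes of extracellular processing and crosslinking, 7 of 9 tested fell and 2 did not pass (median log2 fold change -2.56). Sparc, a collagen-binding matricellular protein, had 1.26 ± 0.216 CPM in KO and 11.2 ± 0.747 CPM in WT, 8.94-fold lower (adjusted p = 3.42e-21). The lysyl oxidase genes Loxl2 and Loxl1 were 11.7-fold and 8.49-fold lower, whereas Lox itself had 209.7 ± 6.09 CPM in KO and 208 ± 1.06 CPM in WT (adjusted p = 0.602). Bmp1, the procollagen C-proteinase, was 3.54-fold lower.

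Of 14 collagen receptor genes tested, 8 fell, 5 rose and 1 did not pass (median log2 fold change -0.27). The abundant endocytic receptor gene Mrc1, the scavenger receptor gene Cd36, the adhesion receptor gene Adgrg6 and the integrin gene Itgb1 rose, by 0.45, 0.22, 0.71 and 0.16 on the log2 scale. The collagen-sensing kinase gene Ddr2 was 10.6-fold lower, at 0.119 ± 0.106 CPM in KO and 1.26 ± 0.330 CPM in WT. Its KO level, from 4, 3 and 0 counts, lay below the floor of 3 counts per library, so the size of this fold is not reliable. Of 9 collagen-degrading protease genes tested, 5 rose and 4 fell (median 0.34). Ctsk, the collagen-cleaving cathepsin K, was 1.90-fold lower, at 273 ± 3.66 CPM in KO and 519 ± 9.37 CPM in WT. Mmp14, a membrane-bound collagenase, was higher, at 482 ± 6.41 CPM in KO and 259.6 ± 1.28 CPM in WT.

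**Figure D4:**
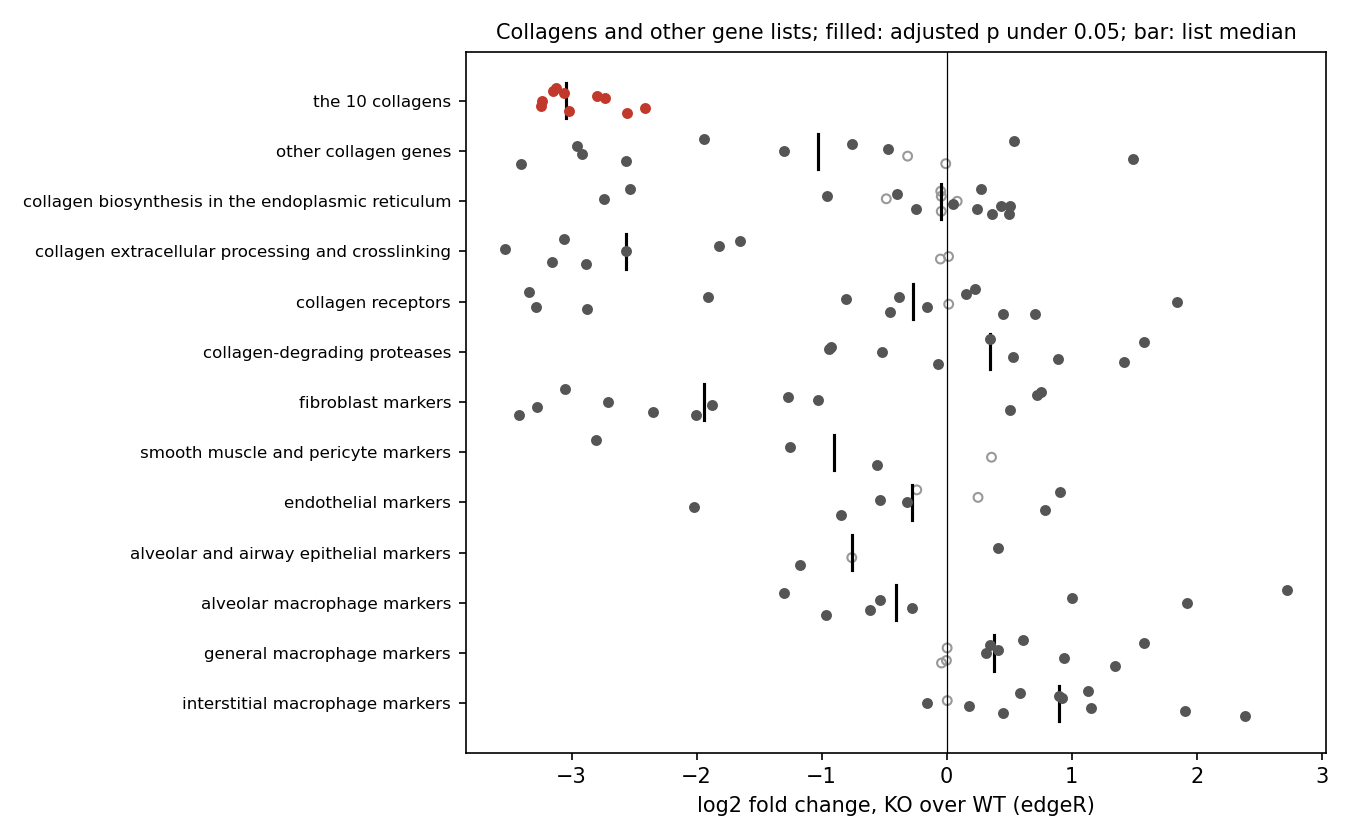
log2 fold changes, KO over WT, of the tested genes of each list (points; filled where the adjusted p was under 0.05, open otherwise; vertical bars are list medians; the vertical offset of points within a row has no meaning). The 10 collagens lie between -3.25 and -2.41, the fibroblast markers run from -3.42 to 0.76 and the smooth muscle and pericyte markers from -2.80 to 0.36.

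Markers of other lung cells were read beside the collagens, since stromal cells are their usual source in the lung. Of 22 fibroblast markers, 19 were analysed and 12 tested, of which 9 fell and 3 rose (median log2 fold change -1.94). Their summed level was 376 to 399 CPM in KO libraries and 353 to 361 CPM in WT libraries, and it was carried by the risers Igfbp4 and Gas6, which reached 184 ± 5.36 and 162 ± 6.40 CPM in KO, against 109 ± 0.677 and 114 ± 4.05 CPM in WT. The proteoglycan genes Bgn and Dcn were 10.8-fold and 9.71-fold lower. Mfap5, Thy1 and Clec3b stayed within 3 counts throughout. Of 13 smooth muscle and pericyte markers, 11 were analysed and 4 tested, with 3 lower and a summed level of 9.64 to 11.6 CPM in KO and 19.9 to 20.4 CPM in WT libraries, while Lmod1, Des and Notch3 stayed within 3 counts throughout. Mesothelial markers summed to 0.254 to 0.662 CPM in KO and 0.147 to 0.488 CPM in WT libraries, too few for any to be tested, and Msln had 0 counts in all KO libraries and at most 1 in WT libraries. Of 17 endothelial markers, 15 were analysed and 8 tested, with 4 lower and 2 higher, and a summed level of 105 to 107 CPM in KO and 145 to 149 CPM in WT. Of 17 epithelial markers, 10 were analysed and 3 tested, with 1 lower and 1 higher, and they summed to 5.35 to 6.49 CPM in KO and 5.80 to 6.82 CPM in WT, and Lamp3 had at most 1 count in any library. The part of such cells in the collagen levels was not tested.

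Each tested gene of the lists was also set against the sum of the 10 collagens, and its ratio in KO over WT was computed. This comparison was added after the values had been seen. The exact intervals cover counting error in counts pooled over the libraries of a group, and no test over libraries was run for these ratios. Few counts give wide intervals, so an interval that holds 1 does not show a fall in the same proportion. Of the 9 fibroblast markers that fell, 4 had intervals that held 1, and these were Dcn (0.814, 0.628 to 1.04), Fbn1 (0.946, 0.675 to 1.30), Igfbp5 (1.205, 0.888 to 1.61) and Pdgfra (1.54, 0.986 to 2.32). In these pooled counts the interval of Bgn, with 154 KO counts, lay below 1 (0.734, 0.604 to 0.888). Loxl2 of the processing list, with 24 KO counts, held 1 at a lower ratio (0.673, 0.420 to 1.03). Another 4 fibroblast markers had intervals above 1. These were the mesenchymal transcription factor gene Prrx1 (1.95, 1.38 to 2.72) and the matricellular protein gene Postn (2.13, 1.24 to 3.51). The others were the cadherin gene Cdh11 (3.28, 2.81 to 3.82) and Fstl1 (3.86, 3.46 to 4.31), which encodes a secreted glycoprotein.

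Genes of the other lists also differed in this. The share of intervals that hold 1 was not computed over all genes lower in KO. The counts given here and for the fibroblast markers thus have no background beside them. Of the other collagens that fell, 5 of 8 held 1, with Col12a1 at 1.01 (0.742 to 1.36) and Col18a1 at 5.69 (5.11 to 6.34). Of the crosslinking and processing genes that fell, 5 of 7 held 1, with Sparc at 0.883 (0.674 to 1.14) and Bmp1 at 2.23 (1.69 to 2.92). Among genes whose intervals held 1, Col5a3, Col8a1, Col16a1, Col27a1, Adamts2, Loxl1, Loxl2, Pcolce and Pdgfra passed the low-count filter through WT alone. Their few KO counts widen the intervals, so the counts of intervals that held 1 partly follow from the filter. Serpinh1 was at 1.17 (0.802 to 1.67). Among smooth muscle and pericyte markers, Tagln was at 1.12 (0.705 to 1.71), while Pdgfrb, the receptor of pericytes, was at 3.32 (2.61 to 4.19) and Acta2, smooth muscle actin, at 5.37 (4.59 to 6.29). All 4 endothelial markers that fell had intervals above 1, with Egfl7, an endothelial matrix protein gene, nearest at 1.91 (1.05 to 3.30) and Calcrl, a peptide receptor gene, at 4.41 (3.97 to 4.90).

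**Figure D5:**
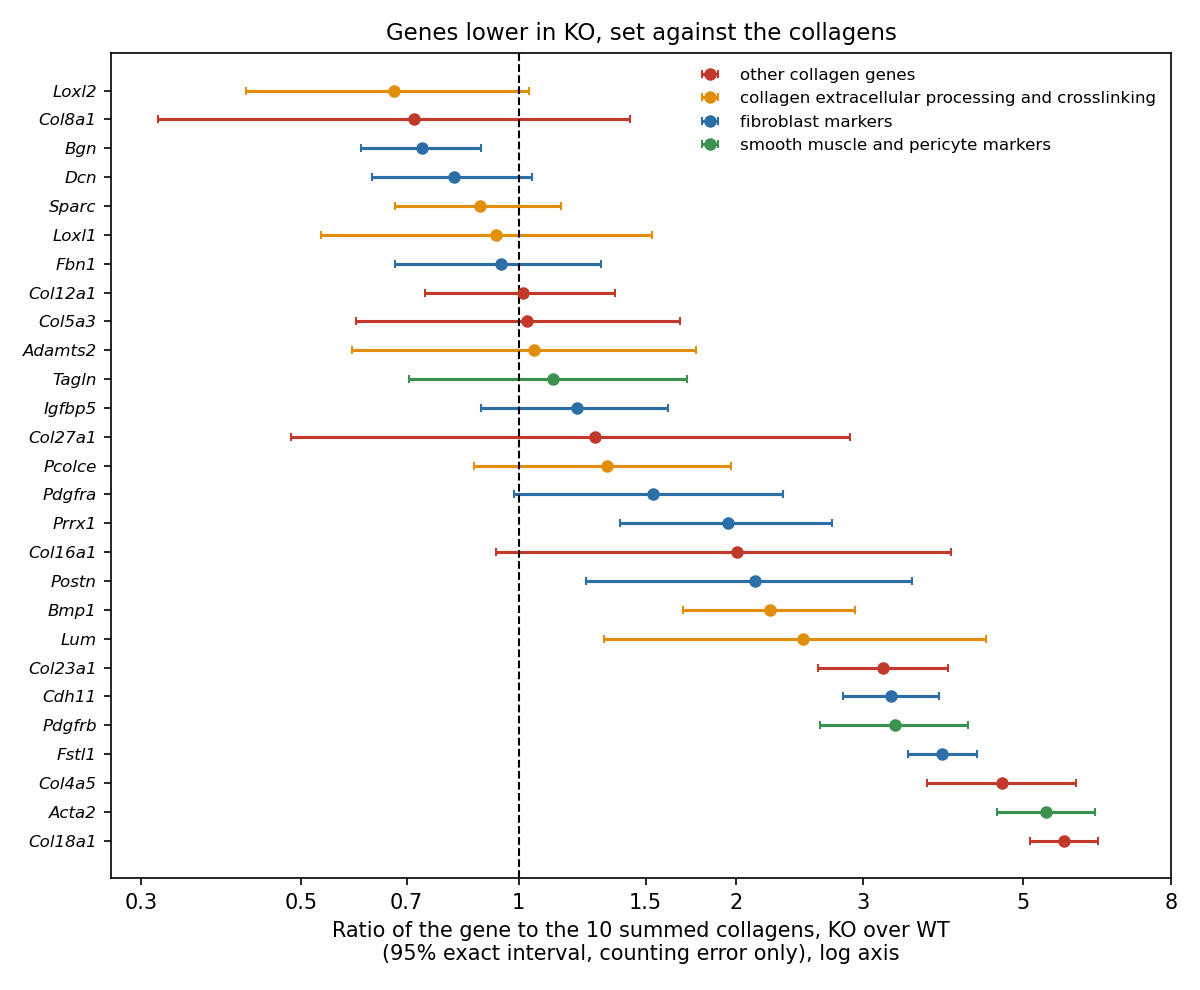
Ratio of single genes to the 10 collagens summed, KO over WT (log axis), for genes of 4 lists that were lower in KO. Bars are 95% exact intervals for counting error from counts summed over 3 libraries per group. A bar that crosses the dashed line at 1 leaves a fall in proportion to the collagens possible but does not show it. Genes with few counts have wide bars. Bgn lies wholly left of the line, and Col4a5, Acta2 and Col18a1 lie farthest right.

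The genes most like the collagens were sought over the 6 libraries by the distance between centred log2 CPM values and the mean profile of the 10. The 10 nearest others lay at distances of 0.0815 to 0.391, and the collagens themselves at 0.352 to 1.08 from their own mean. The others were picked as the smallest distances among all other tested genes. That they lay nearer than the collagens follows from that choice. Col12a1 was nearest. It was followed by Inhba, an activin subunit gene, Scin, which encodes an actin-severing protein, Akap6, a kinase anchoring protein gene, Adgrg3, an adhesion receptor gene of leukocytes, and Aebp1, which encodes a matrix-binding carboxypeptidase-like protein. Inhba had 13, 10 and 12 counts in KO libraries and 100, 95 and 103 counts in WT libraries, and Scin had 31, 31 and 34 counts in KO libraries and 230, 270 and 257 counts in WT libraries. Their folds were 8.19 and 7.58 lower, and nearness to the fold of the collagens follows from how they were chosen. Serpinf1, Nptx1 and Pappa2 were also among the 10, and Kank1, with 0 counts in every KO library and 13 to 15 in WT libraries, was at least 4.49-fold lower against a floor of 3 counts per library. The measure adds a prior count of 2 and so draws low genes together.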

How the data were processed

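The deposited estimated counts per gene are, per the file headers, read counts of the authors; 8.66% to 9.19% of them are not whole, and they were rounded. The authors also deposited FPKM and TPM values. The submitters' processing notes list HISAT, Bowtie2 and GRCm38.p6 without saying what each was for. The counting program and its annotation: not given in the sources used here. A deposited heat map table was not used. KO and WT were compared with edgeR 4.0.16 in R 4.3.3 (quasi-likelihood test, TMM scaling, filterByExpr, group only, Benjamini-Hochberg over 11817 genes); 4007 genes were filtered out. SE is the log2 fold change divided by the root of F. A count of 3 corresponds to 0.146 to 0.153 CPM. Chi-square per gene was 1.38 to 1.59 between libraries of a group, above counting noise. None was thus treated as a duplicate deposit and each counted as 1 sample, although repeat libraries of shared RNA could differ as much. Counts for KO against WT (11711 genes) were simulated with the spread edgeR estimated from these libraries, a biological coefficient of variation of 1.66%. Of genes with at least 50 mean WT counts, 50 of 50 changed 4-fold and 50 of 50 changed 8-fold were called. Of 11511 unchanged genes, 18 were called. These numbers depend on that small spread, and a larger one was not simulated. Alternatives used DESeq2 1.42.0, limma 3.58.1, other scaling and filters, an assumed spread, a replicate block and left-out libraries. Python 3.11.15 with SciPy 1.17.1 gave ratios and exact tests. The collagens and lists were chosen with earlier results of these data known, and the ratios of other genes to the collagens were added after seeing values. The named genes are the 10 collagens, Men1, the 10 most alike, and up to 4 per list by smallest p (fewer are named), plus genes that define a list and are at or near 0; Col4a5, Col8a1, Col19a1, Fkbp10, Lox, Ddr2, Fbn1, Igfbp5, Pdgfra, Prrx1, Postn, Cdh11, Gas6, Egfl7 and Siglecf were chosen after their values were seen.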

Additional observations from a re-analysis of the deposited data

How the results depend on the processing

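All 10 collagens were lower in KO and past the threshold in each of the 17 alternatives that tested them, with adjusted p-values of at most 0.000232, except that a filter of at least 10 counts in every library left 8 of the 10 to test, which were lower and past it. The log2 fold changes of the 10 ran from -3.37 to -2.08 over the count-based alternatives. They shrank to between -1.51 and -0.37 with limma on log2(FPKM + 1), a scale on which an added 1 outweighs values this low, and to between -2.89 and -1.55 on log2(FPKM + 0.1). The number of genes changed, 8179, was 4406 when the biological coefficient of variation was set to 0.1 (1.66% by edgeR's estimate), and 7755 to 7935 when each library was left out. The summed collagens stood at 0.127 of WT in KO, with 0.120 to 0.131 when each library was left out. The number of 17 ratios whose interval left out 1, 2 over all libraries, was 0 to 3 when each library was left out (0 without KO replicate 1 or KO replicate 3, 1 without WT replicate 1 or WT replicate 2, 3 without KO replicate 2), and it cannot be had from FPKM values, which carry no counts. Replicate numbers of the labels showed no pairing (correlations of -0.018, 0.028 and 0.019 between same-numbered libraries), and a replicate block gave 8321 changed genes with all 10 collagens lower. Paired over replicate numbers, the ratios kept their values, and the sign-flip test cannot give a p below 0.25. Counts of 5 to 37 per KO library limit all ratios between genes.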
